A study of Mus musculus with 57 samples.

Results

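NANOG and SOX2 binding that was left 8 h after GATA6 induction was compared in mouse embryonic stem (ES) cells, using the 2 NANOG and the 2 SOX2 libraries taken at 8 h, which are 4 of the 57 samples of the series. The cells were the KH2 ES line on a C57BL/6 background, carrying a single-copy TRE:GATA6-DSREd2 transgene, in which a TET-responsive element drives GATA6 together with the fluorescent protein DsRed2. All cells kept their own NANOG and SOX2 genes. At 8 h they had been held in serum and LIF medium with doxycycline at 1 µg/mL, while the 0 h cells came from 2i medium, so the effects of GATA6 and of the change of medium between 0 and 8 h cannot be told apart. Binding was profiled by CUT&RUN, in which an antibody guides a nuclease to the bound protein and the released DNA fragments are sequenced, from 100000 cells per replicate. The members of the comparison are the regions made by joining all overlapping peaks of the 4 lists on the 21 nuclear chromosomes, 23619 in all. A region was called shared when all 4 lists held a peak in it (407 regions), NANOG-only when both NANOG lists and no SOX2 list did (37 regions), and SOX2-only when both SOX2 lists and no NANOG list did (5588 regions).

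NANOG is a homeodomain factor and SOX2 an HMG-box factor, and both are part of the network that maintains the pluripotent epiblast state of ES cells. SOX2 typically binds next to OCT4 at enhancers that NANOG also occupies. GATA6 is the zinc-finger factor at the top of the primitive endoderm network, the other fate of the inner cell mass, and its forced expression turns ES cells into primitive endoderm-like cells.

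The DNA under the regions is shown first, for the strongest shared, the strongest NANOG-only and the 2 strongest SOX2-only regions whose summit window holds no exon of a coding gene, and for regions near 3 genes of the pluripotent and primitive endoderm states. Each window spans 100 bases on either side of the summit of the strongest peak, or the whole region where that is shorter, on the forward strand of GRCm38 (the build also called mm10). Capitals mark matches, on either strand, to 4 sets of short words, namely the SOX words (CATTGT or CTTTGT), the GATA words (AGATAA or AGATAG, and also TGATAA or TGATAG), the NANOG word TAATGG and the octamer ATGCAAAT. A match describes the letters only and is not evidence of a bound site. Overlapping matches run together in capitals.
Nt5e, shared, chr9:88332459-88332659: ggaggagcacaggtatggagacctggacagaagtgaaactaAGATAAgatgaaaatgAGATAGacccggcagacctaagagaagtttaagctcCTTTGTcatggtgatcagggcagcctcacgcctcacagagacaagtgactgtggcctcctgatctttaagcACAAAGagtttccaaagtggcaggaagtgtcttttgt
Klf5, shared, chr14:99275361-99275561: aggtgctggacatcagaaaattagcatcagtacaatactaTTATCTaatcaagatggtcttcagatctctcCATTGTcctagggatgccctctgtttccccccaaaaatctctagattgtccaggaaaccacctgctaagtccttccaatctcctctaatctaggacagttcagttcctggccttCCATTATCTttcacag
Tdgf1, shared, chr9:110947523-110947723: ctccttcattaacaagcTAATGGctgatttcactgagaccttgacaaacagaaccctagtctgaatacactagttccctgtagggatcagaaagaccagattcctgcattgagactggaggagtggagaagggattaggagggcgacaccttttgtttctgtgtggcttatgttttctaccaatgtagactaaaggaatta
Prf1, NANOG-only, chr10:61307232-61307403: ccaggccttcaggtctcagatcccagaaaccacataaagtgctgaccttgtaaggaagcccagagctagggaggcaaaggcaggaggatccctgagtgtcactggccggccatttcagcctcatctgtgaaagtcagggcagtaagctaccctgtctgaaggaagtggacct
Mast3, SOX2-only, chr8:70792609-70792809: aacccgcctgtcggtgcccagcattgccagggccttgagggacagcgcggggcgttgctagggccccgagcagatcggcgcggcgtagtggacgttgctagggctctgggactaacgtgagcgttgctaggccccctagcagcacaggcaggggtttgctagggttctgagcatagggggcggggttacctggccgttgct
Chic2, SOX2-only, chr5:74953042-74953242: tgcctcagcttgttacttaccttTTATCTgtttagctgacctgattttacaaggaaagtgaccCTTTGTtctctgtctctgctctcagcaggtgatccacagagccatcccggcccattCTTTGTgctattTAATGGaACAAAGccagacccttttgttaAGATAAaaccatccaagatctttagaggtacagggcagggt
Pdgfra, SOX2-only, chr5:75137916-75138116: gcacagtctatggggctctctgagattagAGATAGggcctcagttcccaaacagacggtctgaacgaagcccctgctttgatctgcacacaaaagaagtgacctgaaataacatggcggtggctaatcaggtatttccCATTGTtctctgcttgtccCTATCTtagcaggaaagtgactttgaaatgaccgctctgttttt

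Each window is named after the protein-coding gene with the nearest start site. The Nt5e window lies in an intron of Nt5e, which encodes a surface 5'-nucleotidase, 5362 bp inside the gene, and holds 2 SOX and 2 GATA words. The Klf5 window lies 23230 bp upstream of the start of Klf5, a Krüppel-like factor of the naive state, in intergenic DNA, and holds 1 SOX, 2 GATA and 1 NANOG word. The Tdgf1 window, 1465 bp upstream of the gene of the NODAL co-receptor CRIPTO, holds 1 NANOG word and neither a SOX nor a GATA word. The Pdgfra window, 14276 bp upstream of the gene of a primitive endoderm surface receptor and inside an intron of another gene, holds 1 SOX and 2 GATA words. The NANOG-only window near Prf1 and the SOX2-only window at the Mast3 promoter hold none of the words, and the SOX2-only window near Chic2 holds 3 SOX, 2 GATA and 1 NANOG word.

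The 8 h lists held 5510 and 2255 NANOG peaks (replicates 1 and 2) and 14055 and 11540 SOX2 peaks. The read depth is unknown, but the fold and p-value of the commonest peaks are met by whole numbers of fragments over a background of 1.11 and 1.30 fragments per base in the NANOG libraries and of 0.290 and 0.436 in the SOX2 libraries, so the longer lists came from the lower background coverage. The p-values below measure the spread between libraries, since the labels number the replicates without saying whether they were separate cultures.

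The replicate NANOG lists had little in common at 8 h. In replicate 1, 8.68% of the NANOG peaks lay over a peak of replicate 2, and in replicate 2, 21.2% lay over a peak of replicate 1. For SOX2 these shares were 50.8% and 61.9%. At 4 h the NANOG lists had still shared 46.8% and 47.7% of their peaks. The regions of both NANOG 8 h lists covered 0.166 Mb of the genome and those of both SOX2 lists 3.60 Mb.

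What was reproducible of NANOG binding at 8 h lay almost entirely where SOX2 was also found. Of the 487 regions with a peak in both NANOG lists, 407 (83.6%) also held a peak in both SOX2 lists, 43 held a peak in 1 SOX2 list, and 37 (7.60%) held none. When the NANOG lists were joined without the SOX2 lists, 472 regions had both. The reverse did not hold, since of the 7088 regions with a peak in both SOX2 lists only the 407 shared regions (5.74%) had a peak in both NANOG lists, 1093 had a peak in 1 NANOG list, and 5588 (78.8%) had none. These shares are set partly by the unequal lengths of the lists. With the strongest 2253 peaks of each list by q-value, there were 196 shared, 123 NANOG-only and 838 SOX2-only regions. The shared regions then made up 51.3% of the NANOG and 14.4% of the SOX2 regions. This number is the length of the shortest list, NANOG replicate 2 at 8 h. That list thus kept its weak peaks, while the longer lists kept only their strongest. With NANOG replicate 1 or replicate 2 alone in place of both, 19.4% or 37.6% of the NANOG regions were shared. Beside the 3 classes, 15989 regions (67.7%) were held by a single list.

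**Figure D1:**
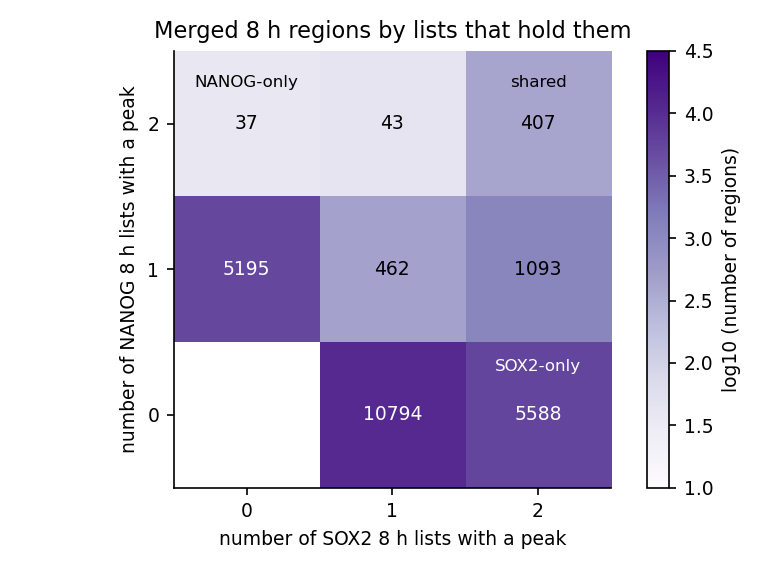
Number of merged 8 h regions by the number of NANOG lists (vertical axis, 0 to 2) and SOX2 lists (horizontal axis, 0 to 2) with a peak in the region, shaded by log10 of the number. Most regions with 2 NANOG lists sit in the column with 2 SOX2 lists (407 of 487), while most regions with 2 SOX2 lists sit in the row without a NANOG list (5588 of 7088).

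The peaks also differed in strength between the classes. In the shared regions the median fold enrichment over the control was 5.69 and 5.64 for NANOG and 11.4 and 11.1 for SOX2 (replicates 1 and 2). The antibodies and the background coverage differed between the NANOG and SOX2 libraries, so these folds do not rank the binding of the proteins. The SOX2-only regions had a median SOX2 fold of 6.98 and 6.96, below the shared regions in both libraries. The NANOG-only regions had a median NANOG fold of 5.22 and 4.86.

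NANOG was found more often at 8 h where SOX2 enrichment was higher. When the 7088 SOX2 regions were ordered by their mean SOX2 fold and divided into deciles, the share with a NANOG peak rose from 3.10% (NANOG replicate 1) and 2.40% (replicate 2) in the weakest decile to 40.9% and 31.6% in the strongest. The share with a peak in both NANOG lists rose from 0.423% to 21.9%. In the strongest decile, with mean SOX2 folds from 12.5 to 43.8, 49.4% of the regions still had no NANOG peak. Within the 407 shared regions the SOX2 folds of the replicates were related more closely (Spearman's rho 0.693) than the NANOG folds of the replicates (0.263) or the folds of NANOG and SOX2 (0.111 to 0.224). These are descriptions across regions, which share libraries and are not independent replicates.

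**Figure D2:**
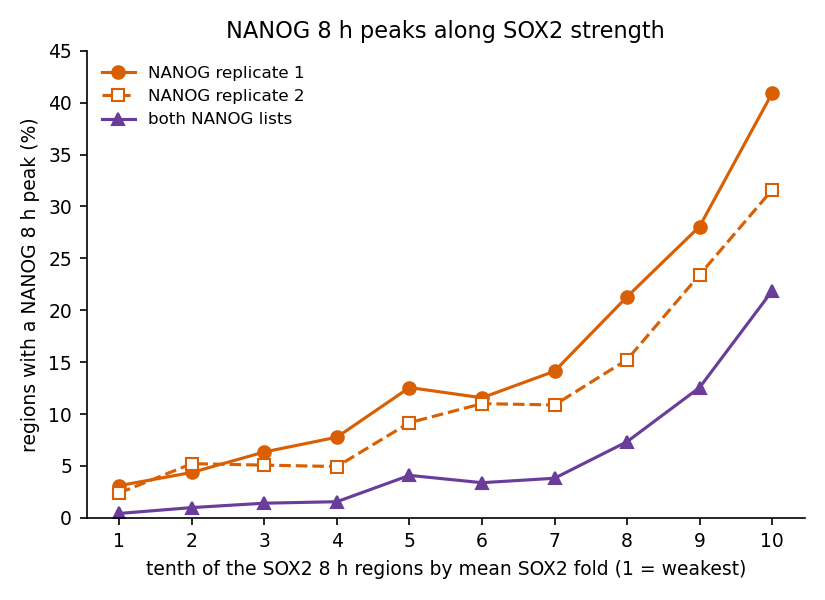
Share of SOX2 8 h regions with a NANOG 8 h peak (vertical axis, %) in 10 equal groups of regions ordered by mean SOX2 fold (horizontal axis), for each NANOG list and for both lists together. All 3 lines rise from under 4% in the weakest group to 40.9%, 31.6% and 21.9% in the strongest.

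The strongest regions of each class show the range of the values. Among the 8 strongest shared regions, the region in Nt5e had NANOG folds of 9.47 and 10.6 and SOX2 folds averaging 41.5 ± 2.79 (SD, n = 2). The region 920 bp upstream of Prrt3 had NANOG folds of 9.97 and 10.4 and a mean SOX2 fold of 26.1 ± 1.47 (SD, n = 2). The region inside Rbpj, the gene of the DNA-binding effector of NOTCH signalling, had the highest mean NANOG fold of the 8, 11.2 ± 2.30 (SD, n = 2), with a mean SOX2 fold of 22.2 ± 4.01 (SD, n = 2). The other 5 lay nearest to Wdr20rt, Car8, Hk2 (a hexokinase gene), Gm6993 and Arglu1, at 11224 to 367993 bp from the start site. All 8 had peaks in both NANOG lists at 2 h and at 4 h and in both GATA6 lists at 2 h. Those nearest to Hk2 and Gm6993 had no NANOG and no SOX2 peak at 0 h.

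The strongest SOX2-only regions reached the folds of the strongest shared regions without a NANOG peak. The region at a promoter of Mast3 lay inside the gene, 272 bp upstream of the nearest of its start sites. It had a mean SOX2 fold of 39.5 ± 1.41 (SD, n = 2), and the region nearest to Chic2 had 39.3 ± 1.19 (SD, n = 2). The regions nearest to Gm10767, Ssx2ip, Thumpd3, Krr1, Enkur and Cyth2 followed with mean folds of 25.2 to 35.2. Of these 8 regions, 3 were promoters (Mast3, Enkur and Cyth2), and all 8 lay under peaks of both GATA6 2 h lists. At 7 of the 8, both NANOG lists of 2 h and both of 4 h had held a peak, the exception being the Enkur promoter, with 1 NANOG list at 2 h and none at 4 h.

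The 37 NANOG-only regions were uneven in strength, with a pair at the top that stood apart from the other 35 and a cluster at the bottom.  In an intron of Hectd4, 52202 bp from the start site of Trafd1, a region of 138 bp (chr5:121333322-121333459) had NANOG folds of 28.3 and 86.7, and near Prf1, the perforin gene, a region of 172 bp (chr10:61307232-61307403) had 16.5 and 38.5. These were the highest folds of both NANOG 8 h lists. The Trafd1 peak was present with the same 2 borders in NANOG replicate 2 at 0 h (fold 12.1) and replicate 1 at 2 h (51.8), but in no other NANOG list and in no SOX2 list. The Prf1 peak was present in replicate 2 at 0 h (8.86), in both lists at 2 h (33.1 and 8.64) and in both at 4 h (14.9 and 36.3), and in no SOX2 or GATA6 list. A GATA6 peak of 1359 bp, in 1 of the lists recorded as 48 h and named as 8 h, ended within the first 3 bases of the Trafd1 region. The third strongest NANOG-only region, in an intron of Ibtk, had folds of 6.97 and 7.83, and the regions nearest to Avl9, Eepd1, Ndufv2, Tmem117 and Nbeal2 had mean folds of 6.47 to 7.24. At the other end, 5 regions with folds of 1.29 to 1.74 lay in introns nearest to the start of Def8, within a single stretch (chr8:123427609-123434088), so they are not separate loci. Def8 was named after its values were seen.

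The classes had different positions relative to protein-coding genes. Of the shared regions, 31 (7.62%, 95% Wilson interval 5.42 to 10.6) had their summit within 1 kb of a start site, against 894 of the SOX2-only regions (16.0%, 15.1 to 17.0) and 15 of the NANOG-only regions (40.5%, 26.3 to 56.5). These intervals cover counting error only, and the high NANOG-only share rests on requiring both NANOG lists. It was 11.8% without NANOG replicate 1 (shared 11.5%, SOX2-only 15.5%) and 6.54% without replicate 2 (shared 9.96%, SOX2-only 15.9%), so the order of the classes turned, as it did with regions of either list (NANOG-only 7.47%, shared 14.2%, SOX2-only 17.2%). With equal numbers of top peaks it was 25.2%. The median distance to the nearest start site was 37555 bp for shared, 21986 bp for SOX2-only and 4801 bp for NANOG-only regions. Summits in introns of coding genes made up 38.8%, 34.8% and 35.1% of the 3 classes, and intergenic summits 43.2%, 40.8% and 16.2%. The NANOG-only promoters included those of Avl9, Eepd1, Nbeal2, Clybl, Pkd1 (a polycystin gene) and Apaf1 (an adaptor of apoptosis), named here after their values were seen.

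**Figure D3:**
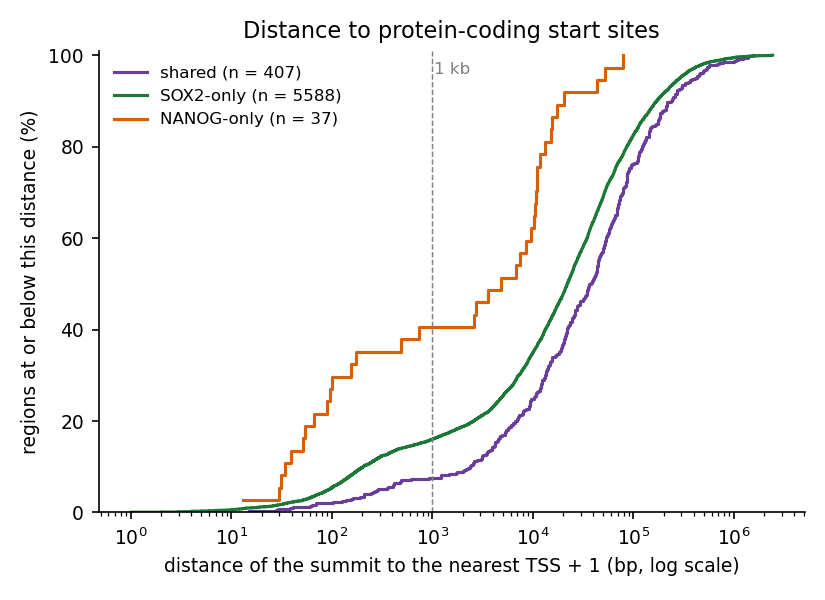
Cumulative share of regions (vertical axis, %) by distance from the summit to the nearest protein-coding start site (horizontal axis, bp plus 1, log scale) for the shared, SOX2-only and NANOG-only regions. The NANOG-only line lies highest at short distances (40.5% within 1 kb) and the shared line lowest (7.62%), an order that turns without NANOG replicate 2 (6.54% against 9.96%).

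At the level of whole lists, 7.99% and 13.0% of NANOG peaks and 16.8% and 15.8% of SOX2 peaks at 8 h were within 1 kb of a start site. Both NANOG lists were below both SOX2 lists, but 2 lists against 2 cannot give an exact permutation p below 0.333, which was the value obtained. Over all 4 time points, with the protein labels permuted within each time point, the NANOG lists averaged 9.50% and the SOX2 lists 13.9% (difference −4.42 percentage points, two-sided exact p = 0.00617, adjusted p = 0.0988 over the 32 tests made). With equal numbers of top peaks this difference was −1.37 points (exact p = 0.168), and at 8 h it turned to +1.98 points. NANOG peaks were also more often over a region of both lists of the other protein at the same time (45.1% on average over the time points, against 20.8% for SOX2, exact p = 0.00926, adjusted p = 0.0988). This test cannot separate the proteins from the number of regions there were to overlap. SOX2 had 17260 and NANOG 7513 such regions at 0 h, 18207 and 6908 at 4 h, and 7086 and 472 at 8 h. At 2 h, with 17866 and 19088, the mean share was 37.5% for NANOG and 39.7% for SOX2.

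GATA6 is the induced factor, and the 8 h lists of the proteins differed in how often their peaks lay over its early binding. At 8 h, 32.9% and 57.0% of NANOG peaks but 80.2% and 86.6% of SOX2 peaks lay over a region of both GATA6 2 h lists, so the lists did not overlap. The NANOG shares mix peaks of 1 list with peaks of both. Both GATA6 2 h lists held a peak at 10.3% of the 5195 regions of 1 NANOG list alone. They did so at 99.8% of the 407 shared, 51.4% of the 37 NANOG-only and 92.1% of the SOX2-only regions. How far this mix sets the change described next was not tested. The GATA6 2 h lists were long (79358 and 62683 peaks). At 0 h, before induction, 64.5% of NANOG and 51.3% of SOX2 peaks on average already lay over a region of both. At 0 to 4 h together the NANOG lists had averaged 67.7% and the SOX2 lists 60.2%. The NANOG minus SOX2 difference thus went from +7.46 points at 0 to 4 h to −38.5 points at 8 h, a change of −46.0 points (two-sided exact p = 0.0309 with protein labels permuted within time points, adjusted p = 0.152). With the 8 h label permuted among the lists of each protein instead, a test added after seeing the data, the exact p was 0.00255 (adjusted p = 0.0204 over 8 measures). Within SOX2, the share at 8 h was above that of all 6 earlier lists (exact p = 0.0357, the smallest that 28 arrangements can give, adjusted p = 0.152). With equal numbers of top peaks per list the SOX2 difference between 8 h and the earlier times shrank from 23.2 to 1.56 points (exact p = 1), that of NANOG went from −22.7 to −42.2 points (exact p = 0.0357), and the change in the difference between the proteins was −43.8 points (exact p = 0.273). This setting kept the whole of NANOG 8 h replicate 2 and only the strongest peaks of the longer earlier lists. With all peaks and with regions of both lists, none of the other tests of 8 h against the earlier times within a protein had an exact p under 0.05.

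The NANOG minus SOX2 difference in the share of peaks with a short GATA word also fell at 8 h. These shares rest on the same mix of peaks. A GATA word was found in 27.3% of the regions of 1 NANOG list alone, 64.4% of the shared, 27.03% of the NANOG-only and 58.5% of the SOX2-only regions. Within 100 bp of the summit, 35.5% and 41.8% of NANOG and 51.5% and 55.6% of SOX2 8 h peaks held a GATA word, against 38.2% of 26458 windows of the same length placed every 100 kb along the genome. The NANOG minus SOX2 difference was +6.05 points at 0 to 4 h and −14.9 points at 8 h, a change of −21.0 points (exact p = 0.00154, the smallest that 1296 arrangements can give, adjusted p = 0.0494). With the 8 h label permuted within each protein the exact p was 0.0612. Most of the change was on the side of SOX2, which went from 36.8% at 0 to 4 h to 53.5% (+16.7 points, exact p = 0.0714, adjusted p = 0.152). NANOG went from 42.9% to 38.6% (−4.23 points, exact p = 0.607, adjusted p = 0.747). The NANOG mean at 0 h alone was lower, 32.0%. The SOX words were found in 29.0% and 33.1% of NANOG and 40.1% and 44.6% of SOX2 8 h peaks, against 28.4% of the genome windows. The mean GC content around the 8 h summits overlapped between the proteins (48.97% for NANOG and 48.76% for SOX2).

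**Figure D4:**
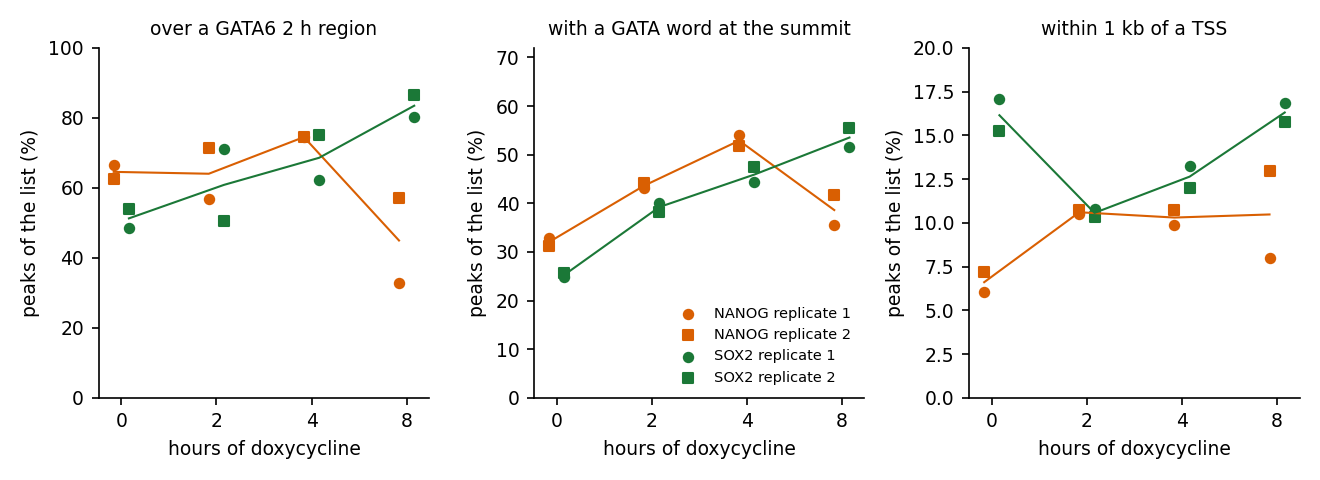
Share of the peaks of each list (vertical axes, %) that lie over a region of both GATA6 2 h lists, hold a GATA word within 100 bp of the summit, or lie within 1 kb of a start site, for NANOG and SOX2 at 0, 2, 4 and 8 h of doxycycline (horizontal axes, evenly spaced), where each point is a list and lines join the means. In the first 2 panels the SOX2 points are the higher at 8 h (80.2% and 86.6% over GATA6 2 h, against 32.9% and 57.0% for NANOG).

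By class, 406 of the 407 shared regions held a peak in both GATA6 2 h lists, as did 92.1% of the SOX2-only and 51.4% of the NANOG-only regions. The NANOG-only value was 19.9% without NANOG replicate 1, 10.3% without NANOG replicate 2, 70.5% without SOX2 replicate 1 and 87.0% with equal numbers of top peaks. The regions of 1 NANOG list alone did so in 10.3%, and those of 1 SOX2 list alone in 66.1%. GATA words were found in 64.4% of shared, 58.5% of SOX2-only and 27.03% of NANOG-only regions, and SOX words in 49.1%, 47.9% and 18.9%. The GATA6 lists recorded as 4, 8 and 48 h carry peak names of other time points, so both possible assignments are given. At the shared regions, GATA6 at 8 h was found in 99.8% and 99.8% of the regions as recorded and in 97.5% and 98.3% by the peak names. At the SOX2-only regions these values were 91.5% and 93.8% as recorded and 78.2% and 81.0% by the names.

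The shared regions had been bound by both proteins before. All 407 held at least 1 earlier NANOG peak and at least 1 earlier SOX2 peak. NANOG had been found at 60.0% and 66.6% of them at 0 h, 99.5% and 98.8% at 2 h and 98.5% and 99.0% at 4 h, and SOX2 at 67.1% and 66.8%, 89.4% and 97.5%, and 99.5% and 98.5%. At 0 h, 128 of the shared regions (31.4%) had lacked NANOG in both libraries. Median NANOG folds at these regions were 9.37 and 11.5 at 0 h, 20.96 and 14.9 at 2 h, 11.8 and 10.9 at 4 h, and 5.69 and 5.64 at 8 h. For SOX2 the medians were 14.8 and 14.6 at 0 h, 12.6 and 18.8 at 2 h, 21.1 and 14.2 at 4 h and 11.4 and 11.1 at 8 h. With medians taken over the regions that each list held, the NANOG medians at 8 h were below those of all 6 earlier NANOG lists. The SOX2 medians at 8 h were below those of all 6 earlier SOX2 lists. Folds of libraries of different depth are not comparable in size. The background coverage was 0.290 and 0.436 in the SOX2 8 h libraries and 0.409 to 0.692 in the earlier ones. For NANOG it was 1.11 and 1.30 at 8 h and 0.865 to 1.31 earlier. These medians therefore do not rank binding over time, and whether depth sets their fall was not tested.

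Most SOX2-only regions had also carried NANOG at 2 h. NANOG was found at 23.7% and 32.9% of them at 0 h, at 82.8% and 65.7% at 2 h, at 52.9% and 51.5% at 4 h, and by definition at none at 8 h. The NANOG 2 h lists were the longest of this protein (52285 and 26742 peaks). They also held a peak at 52.5% and 34.3% of the regions of 1 SOX2 list alone. How far the length of the lists sets these shares was not tested. SOX2 was found at 54.9% and 53.4% at 0 h, 67.9% and 84.0% at 2 h, and 95.9% and 84.9% at 4 h. Only 110 of the 5588 regions (1.97%) had no earlier SOX2 peak. NANOG-only regions had NANOG peaks at 16.2% and 27.03% at 0 h and at 83.8% and 64.9% at 2 h, and 23 of the 37 had no SOX2 peak at 0 h. In contrast, 4520 of the 5195 regions of 1 NANOG list alone (87.0%) had no NANOG peak in any of the 6 earlier lists.

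**Figure D5:**
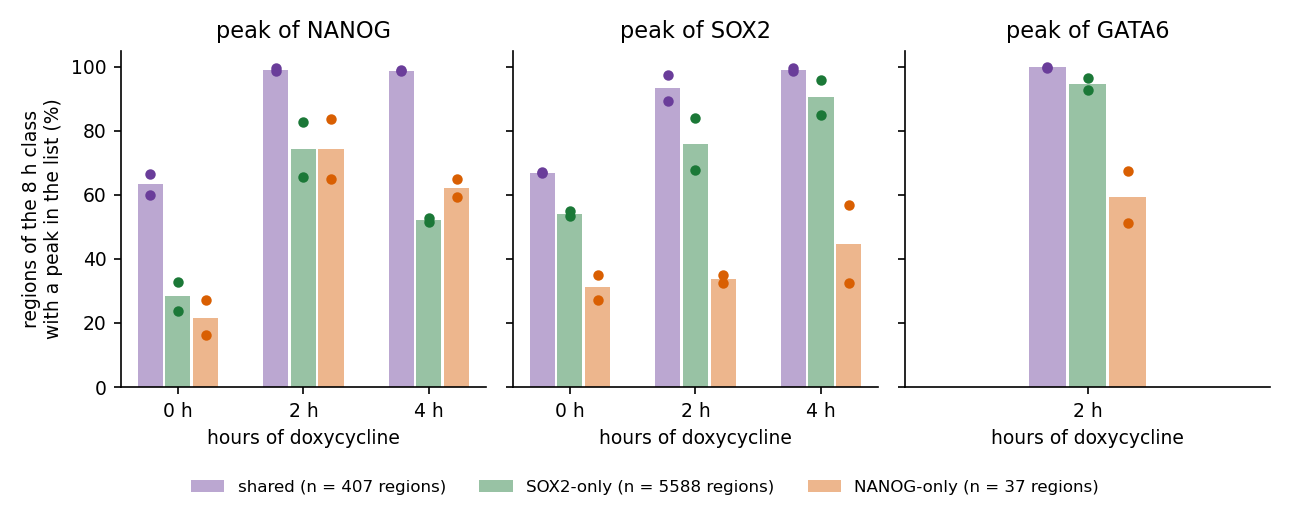
Share of the shared, SOX2-only and NANOG-only 8 h regions (vertical axis, %) with a NANOG or SOX2 peak at 0, 2 and 4 h or a GATA6 peak at 2 h (horizontal axes), where bars are means of 2 lists and points the lists. The shared regions reach 98.5% to 99.5% for NANOG at 2 and 4 h, and the SOX2-only regions fall from a mean of 74.2% at 2 h to 52.2% at 4 h for NANOG.

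The SOX2-only regions were of mixed kinds. The 894 promoter regions had SOX2 peaks at 0 h in 87.1% and 82.4%, GATA words in 23.9% and a mean GC content of 57.0%. The 4694 distal regions had SOX2 peaks at 0 h in 48.7% and 47.9%, GATA words in 65.1% and a mean GC content of 47.1%. SOX words were at 26.1% of the promoter and 52.1% of the distal regions. GATA6 at 2 h was found at 91.8% and 83.6% of the promoter and at 97.4% and 94.5% of the distal regions. Over all SOX2 regions, from the weakest to the strongest decile of SOX2 fold, the share with a SOX word rose from 30.7% to 67.1%, that with a GATA word from 51.5% to 66.7%, and the share at promoters fell from 26.7% to 6.77%.

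Seen from 0 h, fewer of the common regions held a NANOG peak at 8 h than a SOX2 peak. A missing peak need not be lost binding, since the NANOG 8 h lists were the shorter and agreed less between replicates. As background, of 36811 regions held by both lists of NANOG or SOX2 at any of the 4 time points, 1.33% held a peak in both NANOG 8 h lists, 19.4% in both SOX2 8 h lists and 1.12% in all 4. At 0 h, 6021 regions held peaks in both NANOG and both SOX2 lists. NANOG was still found at 94.1% and 82.6% of these at 2 h, 51.5% and 50.8% at 4 h and 11.5% and 8.84% at 8 h, and SOX2 at 76.6% and 90.7%, 82.3% and 67.2%, and 40.7% and 38.9%. At 8 h, 227 of them (3.77%) held a peak in all 4 lists, 1155 (19.2%) in both SOX2 lists and no NANOG list, 2 (0.0332%) in both NANOG lists and no SOX2 list, and 2983 (49.5%) in none. Of 7482 regions with SOX2 but no NANOG at 0 h, SOX2 was found at 25.9% and 21.8% at 8 h. Of 655 regions with NANOG but no SOX2 at 0 h, NANOG was found at 3.51% and 1.98% and SOX2 at 7.79% and 7.33% at 8 h.

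Seen from 8 h, 13.9% and 25.2% of NANOG peaks and 40.8% and 44.5% of SOX2 peaks lay over a region of both 0 h lists of the same protein.

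Regions were next assigned to the protein-coding gene with the nearest start site within 50 kb. Of 21911 protein-coding genes, 224 (1.02%) had a shared region, 3044 (13.9%) a SOX2-only region and 31 (0.141%) a NANOG-only region. Cth and Arhgef3 had 3 shared regions each, and 7 further genes had 2, among them 1700029F12Rik, Dcstamp and Fat1 (the first in alphabetical order). The genes with the most SOX2-only regions were Zfp184 with 10, Vangl1 (a planar cell polarity gene) with 8, Chn2 with 7, and Abt1 and Ak4, which are among 4 genes with 6.

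Regions of both SOX2 lists stood near most of the 20 primitive endoderm genes listed. A SOX2-only region was nearest to 14 of the 20 (70.0%, against 13.9% of all protein-coding genes). A shared region was nearest to 2 of the 20 (10.0%, against 1.02%), Gata6 and Lamc1, which are among the 14. None had a NANOG-only region. The 14 genes had 30 regions, of which 24 (80.0%) had no NANOG and no SOX2 peak in any 0 h list and 29 had peaks in both GATA6 2 h lists. Over all protein-coding genes, 34.5% of such regions had no 0 h peak and 91.6% had peaks in both GATA6 2 h lists. Gata6 had a shared region 48042 bp upstream of its start, with mean folds of 4.20 ± 0.152 for NANOG and 8.36 ± 0.113 for SOX2 (SD, n = 2), and 1 SOX2-only region 45946 bp upstream. Pdgfra had 4 SOX2-only regions between 4697 and 14276 bp upstream, with mean SOX2 folds of 4.95 to 11.4. Sparc, which encodes a matrix glycoprotein, also had 4. Lamc1, a laminin chain gene, had a shared region (mean NANOG fold 6.85 ± 2.93 and SOX2 fold 17.5 ± 1.09, SD, n = 2) and 3 SOX2-only regions. The basement membrane genes Col4a1, Col4a2 and Lama1, the transcription factor genes Gata4, Sox17 and Foxa2, and the genes of the endocytic proteins DAB2, megalin (Lrp2) and cubilin (Cubn) had SOX2-only regions, with 1 or 2 per gene. Sox7, Hnf4a, Foxq1, Eomes, Amn and Lamb1 had none.

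Of the 20 epiblast and naive pluripotency genes, 12 (60.0%, against 13.9% of all protein-coding genes) had a SOX2-only region. A shared region was nearest to 2 of the 20 (10.0%, against 1.02%), Klf5 and Tdgf1, and none of the 20 had a NANOG-only region. Of the 16 regions near genes of this list, 10 (62.5%) had peaks in both SOX2 0 h lists, against 52.4% of such regions over all protein-coding genes. The other 6 (37.5%, against 34.5%) had no NANOG or SOX2 0 h peak. Both shares were near those over all genes. The shared region of Klf5, which had no 0 h peak, had mean folds of 6.99 ± 0.190 for NANOG and 19.6 ± 2.13 for SOX2 (SD, n = 2), and 2 SOX2-only regions lay 32469 and 41231 bp downstream of the start. The shared region upstream of Tdgf1, which had peaks in all 4 NANOG and SOX2 lists at 0 h, had 4.72 ± 0.521 for NANOG and 8.09 ± 0.617 for SOX2 (SD, n = 2). Pou5f1, the gene of OCT4, had a SOX2-only region 3090 bp upstream (mean SOX2 fold 7.74 ± 0.290, SD, n = 2). Klf2, Klf4, Esrrb, Tbx3, Prdm14, Dppa3, Utf1, Gdf3 and Otx2 had 1 SOX2-only region each, and Sall4 had 2. No region of the 3 classes was assigned to Nanog, Sox2, Nr5a2, Tfcp2l1, Zfp42, Dppa5a or Fgf4.

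Of the 20 signalling genes, 12 (60.0%, against 13.9% of all protein-coding genes) had a SOX2-only region and 5 (25.0%, against 1.02%) a shared region. The 5 were the FGF feedback inhibitors Spry2 and Spry4, the NODAL inhibitor Lefty2, the BMP target Id3 and the LIF feedback inhibitor Socs3. Only 3 of the 25 regions near genes of this list had no 0 h peak (12.0%, against 34.5% over all protein-coding genes). Peaks in both SOX2 0 h lists were found at 19 (76.0%, against 52.4%). The shared region downstream of Id3 had mean folds of 8.65 ± 3.45 for NANOG and 11.5 ± 0.485 for SOX2, and that upstream of Lefty2 had 5.16 ± 0.916 and 10.7 ± 0.387 (SD, n = 2). Spry4 had a shared region (NANOG 4.55 ± 0.281, SOX2 15.6 ± 4.30, SD, n = 2) and 4 SOX2-only regions, 1 of them 129 bp upstream of its start. Dusp6, an ERK phosphatase gene, had 4 SOX2-only regions, and the promoter of Etv4, an ETS factor gene downstream of FGF, had the strongest SOX2-only region of this list (mean fold 19.6 ± 4.73, SD, n = 2). Lefty1, Smad7, Skil, Bmp4, Id1, Tcf7l1 and Axin2 each had 1. The remaining 6 genes of the list, Fgfr1, Fgfr2, Etv5, Nodal, Id2 and Lef1, had no region of the 3 classes. Of 16 genes of other lineages, 2 (12.5%), the trophectoderm genes Tfap2c and Elf5, had a SOX2-only region, close to the 13.9% over all genes, and none had a shared region. The lists were put together with earlier results of these data known. With the strongest 2253 peaks per list, SOX2-only regions stood near 6 primitive endoderm, 0 epiblast and 5 signalling genes.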

How the data were processed

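The peak lists of 30 samples were read, of which the NANOG, SOX2 and GATA6 lists entered the values given, and 27 further samples were not used here. The authors cut chromatin by CUT&RUN, aligned the reads to mm10 with Bowtie2, removed blacklisted regions, kept duplicates, and called narrow peaks with MACS in each library against an antibody control library. Picard and SAMtools are also named in the submitters' processing notes. Each deposited list gives the fold enrichment of a peak over the control (a ratio), its −log10 p and −log10 q values, an integer score that the authors' caller derived from the q-value, and the offset of the summit. All deposited peaks used here have a q-value of at most 0.05, and there is a list per library.

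From these files, peaks on the 21 nuclear chromosomes were merged where they overlapped by at least 1 bp, and regions were classed by the lists that held them. Where a list had several peaks in a region, the strongest was used. Distances ran from the summit to the nearest start site of any transcript of a protein-coding gene in GENCODE M21 (21911 genes). A promoter was within 1 kb, and a region was assigned to a gene within 50 kb. Sequence was read from GRCm38 and searched on both strands for the words spelled out in the results. Lists were compared by two-sided exact permutation tests over libraries, since peaks and regions are not replicates, with Benjamini-Hochberg adjustment over 32 tests. Fold and p-values were also searched for the background coverage under which the 30 commonest pairs of a list are whole numbers of fragments, which held for 8 to 11 pairs. This gives a relative depth only, so the precision of single peaks is limited by an unknown depth. The scripts were tested on simulated data.

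Genes were named by a rule, which took the 8 strongest regions of each class, every gene of the 4 gene lists with a region, and the 5 genes with the most shared and with the most SOX2-only regions. A gene that the rule names is not reported here by name. The members and gene lists were chosen with earlier results of these data known. The alternatives were equal numbers of top peaks, a −log10 q of at least 5, a 50% overlap, regions of either list, each list left out, a 5 kb promoter, start sites of all genes, a narrower summit window, a 100 kb gene limit, either GATA6 list and a replicate block. Python 3.11.15, pandas 2.3.3, numpy 2.4.6 and scipy 1.17.1 were used.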

Additional observations from a re-analysis of the deposited data

Results flagged for a closer look

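Of the 8 measures of the lists, 3 differed between the proteins by another amount at 8 h than at 0 to 4 h, with an exact p under 0.05 before adjustment (protein labels permuted within time points). The NANOG minus SOX2 difference in the share of peaks over a region of both GATA6 2 h lists changed by -46.0 percentage points (exact p = 0.0309, adjusted p = 0.152), with both NANOG lists below both SOX2 lists at 8 h. The difference in the share of summits with a GATA word changed by -21.0 points (exact p = 0.00154, adjusted p = 0.0494), and the lists did not overlap at 8 h. The difference in GC content changed by 1.81 points (exact p = 0.0247, adjusted p = 0.152), and the lists overlapped at 8 h. With the 8 h label permuted within each protein, a test chosen after seeing the data, the exact p values were 0.00255, 0.0612 and 0.129 (adjusted over 8 measures 0.0204, 0.173 and 0.258).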

How the results depend on the processing

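With the strongest 2253 peaks of each list there were 196 shared, 123 NANOG-only and 838 SOX2-only regions (51.3% of the NANOG and 14.4% of the SOX2 regions shared). This setting kept the whole of NANOG 8 h replicate 2 and only the strongest peaks of the longer lists. Median folds in shared regions were then 5.97 for NANOG and 14.2 for SOX2, against 5.67 in NANOG-only and 12.0 in SOX2-only regions. Genes with a region numbered 108 (shared), 90 (NANOG-only) and 513 (SOX2-only). Shared regions were near 1 epiblast, 1 primitive endoderm and 2 signalling genes, NANOG-only regions near 1 gene of each of these lists, and SOX2-only regions near 0 epiblast, 6 primitive endoderm, 5 signalling and 1 other gene. In the same setting the NANOG minus SOX2 promoter share was 1.98 points at 8 h, -1.37 over all times (exact p = 0.168) and changed by 4.46 at 8 h (exact p = 0.0401). The median log10 distance differed by -0.017 at 8 h and 0.019 over all times (exact p = 0.160), and changed by -0.049. The share over the other protein at 8 h against earlier was -20.7 (NANOG) and -26.1 points (SOX2, both exact p = 0.0357), and that over GATA6 2 h was -42.2 (NANOG, exact p = 0.0357) and 1.56 (SOX2, exact p = 1), a change between proteins of -43.8 (exact p = 0.273). The SOX word share differed by -14.5 over all times (exact p = 0.00309), and 23.4% of SOX2 8 h peaks lay over an own 0 h region.

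With a −log10 q of at least 5 there were 97 shared and 8 NANOG-only regions (2.23% of the SOX2 regions shared), with median folds of 7.06 (NANOG) and 13.8 (SOX2) in shared, 7.09 in NANOG-only and 8.57 in SOX2-only regions, and with 56 genes near shared and 6 near NANOG-only regions, 1 from each of the epiblast, primitive endoderm and signalling lists near a shared region. The change of the promoter difference was 3.39, that of the distance -0.060, the NANOG share over SOX2 at 8 h against earlier 0.356, and the share over GATA6 2 h was 15.7 for SOX2 at 8 h against earlier (exact p = 0.143) and 1.99 between proteins over all times. The GATA word share differed by 5.12 over all times (exact p = 0.0401), and 36.4% of NANOG 8 h peaks lay over an own 0 h region.

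With regions of either list there were 2005 shared, 5232 NANOG-only and 16382 SOX2-only regions (27.7% and 10.9% shared), with median folds of 5.16 and 8.86 in shared, 4.58 in NANOG-only and 5.92 in SOX2-only regions, near 1163, 2783 and 7004 genes. Shared regions were near 8 epiblast, 4 primitive endoderm, 8 signalling and 1 other gene, NANOG-only regions near 5, 10, 4 and 5, and SOX2-only regions near 4 genes of other lineages. The NANOG share over SOX2 at 8 h against earlier was -31.6 (exact p = 0.0357), and the change between proteins -0.521. With GATA6 2 h peaks of either list, the share at 8 h against earlier was -28.8 for NANOG (exact p = 0.0357) and 17.5 for SOX2 (exact p = 0.0714), and the change between proteins -46.3 (exact p = 0.0556).

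With a replicate block, the change of the GATA6 2 h share was -46.0 (exact p = 0.0625) and that within SOX2 23.2 (exact p = 0.0625), and the GC content over all times differed by -1.16 (exact p = 0.102), while the 22 other tests kept their side of the threshold. Whether libraries with the same replicate number belong together is not known. The differences between replicates of NANOG and of SOX2 in shared regions were unrelated (r = -0.03 over 407 regions, which are not replicates). This cannot decide the question, since there are 2 numbers, the NANOG folds agreed poorly, and an effect on whole lists would not show in single regions. With the 8 h label permuted within each protein, an alternative chosen after seeing the data, the changes of the GATA word share (-21.0, exact p = 0.0612) and GC content (1.81, exact p = 0.129) did not pass the threshold. Permuting protein labels within time points is a weak test for a change confined to 8 h, where few arrangements exist.

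Leaving out 1 list in turn gave 423 to 1064 shared, 56 to 4083 NANOG-only and 6022 to 12299 SOX2-only regions, with 19.4% to 88.5% of the NANOG and 3.05% to 15.0% of the SOX2 regions shared, the highest NANOG-only number being without NANOG replicate 2 and the highest SOX2-only number without SOX2 replicate 2. Median folds ranged over 5.22 to 5.67 and 9.77 to 11.1 in shared, 4.495 to 5.44 in NANOG-only and 5.62 to 6.99 in SOX2-only regions. Genes ranged over 233 to 604, 43 to 2227 and 3227 to 5732, epiblast genes with a shared region over 2 to 6, genes with a NANOG-only region over 0 to 3 (epiblast), 0 to 8 (primitive endoderm), 0 to 3 (signalling) and 0 to 5 (other), and other-lineage genes with a SOX2-only region over 2 to 4. Differences ranged over -4.36 to 0.606 (change of promoter share), -30.9 to -12.8 and -29.5 to -17.1 (share over the other protein at 8 h against earlier, NANOG and SOX2), 17.8 to 31.6 (between proteins) and -13.8 to 10.2 (its change), -34.8 to -10.6 and 18.8 to 26.4 (share over GATA6 2 h, NANOG and SOX2) and -58.0 to -33.9 (its change), -4.95 to -3.66 (SOX words), -0.092 to 0.502 (GC at 8 h) and -1.27 to -1.04 (GC over all times). The share of SOX2 8 h peaks over an own 0 h region ranged over 40.8% to 48.6%. The shares of regions by class moved too. Of NANOG-only regions, leaving out 1 list gave 6.54% to 41.0% at promoters, 10.3% to 70.5% over GATA6 2 h, 23.0% to 25.4% with a SOX word and 27.2% to 39.3% with a GATA word. Their GATA word share was 45.5% with equal numbers of top peaks and 12.5% with a −log10 q of at least 5, where no region had a SOX word. Leaving out 1 list gave 7.09% to 11.5% of shared and 15.5% to 17.2% of SOX2-only regions at promoters, and 77.6% to 93.0% of SOX2-only regions over GATA6 2 h. With equal numbers of top peaks, 4.59% of shared and 10.02% of SOX2-only regions were at promoters. A summit window of 50 bp each side gave SOX words in 31.4% of shared and 30.2% of SOX2-only regions, and GATA words in 39.1% and 38.35%. Among the further results (CpG number, peak width, −log10 q and the other tests of 8 h against earlier), 180 values kept their call or stayed within the spread, 45 moved, 21 passed the threshold and 13 reversed. The causes were not tested. The unknown depth and the poor agreement of the NANOG lists limit every number of regions.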
